A study of Mus musculus with 12 samples.

Results

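Cspg4, Rgs5, Mcam, Kcnj8, Abcc9, Higd1b, Trpc6 and Ebf1, 8 genes in common use as markers of pericytes, were followed through 4 stages of mouse lung development. They were taken by symbol from a table of 28004 genes, and all 8 were present and passed the filter on low values. Bulk RNA was sequenced from lung cells positive for both dsRed, driven by Acta2, and GFP, driven by Pdgfra, after dissociation of whole lung and cell sorting. All groups share this 1 genotype (Acta2-dsRed+, Pdgfra-GFP+), and the labels name no other allele or treatment. The stages were embryonic (E17.5) and postnatal (P3, P7, P10), each with 3 libraries. Acta2 is the gene of smooth muscle actin, Pdgfra that of a growth factor receptor of lung fibroblasts, and none of the 8 markers was used in the gate. Whether replicates were separate animals, pools or litters is not in the labels, so the p-values reflect only how far these samples spread, which may be technical.

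Pericytes are mural cells that wrap capillaries inside the endothelial basement membrane, and in the lung they share many genes with vascular smooth muscle and with other mesenchymal cells. Endothelial platelet-derived growth factor B recruits them through the receptor Pdgfrb, and Notch, angiopoietin and transforming growth factor signals help to keep them on the vessel wall. The 8 markers have unlike jobs: Cspg4 (NG2) and Mcam (CD146) are cell surface proteins, Rgs5 shortens signalling by G protein-coupled receptors, Kcnj8, Abcc9 and Trpc6 are parts of ion channels, Higd1b is a small mitochondrial membrane protein, and Ebf1 is a transcription factor. Several are shared with other cells: Cspg4 also marks glial progenitors, Mcam endothelium and smooth muscle, and Ebf1 B lymphocytes.

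Promoter sequences are shown for Cspg4 and Rgs5, the markers that fell across birth, and for Kcnj8 and Abcc9, the neighbouring genes for the subunits of one channel. They were taken from RefSeq (GRCm38.p6), where 7 of the 8 markers had an entry and Higd1b was missing. Each run is 5′ to 3′ on the strand of its gene and lies before the gene's start in both RefSeq and GENCODE. Cspg4 is from chr9:56864854-56865032 (plus strand), Rgs5 from chr1:169655251-169655500 (plus strand), Kcnj8 from chr6:142571615-142571864 (minus strand) and Abcc9 from chr6:142702316-142702524 (minus strand). Capitals in Abcc9 mark the match described below them.
Cspg4: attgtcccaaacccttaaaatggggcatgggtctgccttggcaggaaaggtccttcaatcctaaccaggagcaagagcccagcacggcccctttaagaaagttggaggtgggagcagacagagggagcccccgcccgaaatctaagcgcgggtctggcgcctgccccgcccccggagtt
Rgs5: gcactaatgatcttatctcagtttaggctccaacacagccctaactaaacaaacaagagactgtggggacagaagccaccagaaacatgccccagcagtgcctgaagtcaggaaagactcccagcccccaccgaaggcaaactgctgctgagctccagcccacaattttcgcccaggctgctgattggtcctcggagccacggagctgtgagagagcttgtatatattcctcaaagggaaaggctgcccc
Kcnj8: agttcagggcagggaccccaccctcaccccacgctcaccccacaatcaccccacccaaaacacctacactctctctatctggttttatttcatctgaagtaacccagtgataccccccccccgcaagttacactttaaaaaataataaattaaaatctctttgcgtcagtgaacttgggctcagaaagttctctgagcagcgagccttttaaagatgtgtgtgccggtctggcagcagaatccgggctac
Abcc9: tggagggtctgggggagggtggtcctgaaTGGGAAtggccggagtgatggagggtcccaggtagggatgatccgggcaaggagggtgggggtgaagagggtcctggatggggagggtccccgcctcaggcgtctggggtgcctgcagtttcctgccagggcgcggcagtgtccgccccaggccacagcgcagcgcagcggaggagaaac
In the 250 bases before each start, 3 motifs were searched on both strands. The palindrome of the Ebf family (TCCC, any 2 bases, GGGA) was in 0.779% of 32851 RefSeq promoters and in no promoter of a marker. The core TGGGAA of RBPJ, the DNA-binding partner of Notch, was in 21.6% of all promoters. Among the markers it was found in Abcc9 and in the second of the Ebf1 starts. The searched bases of that Ebf1 start lie inside the gene as GENCODE draws it. The bases after it were found in no GENCODE transcript of Ebf1. The forkhead core TGTTTAC was in 3.17% of all promoters and in none of the markers'. These are matches of letters in a short window, and no binding was measured.

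All levels below are CPM, the deposited scaled counts set relative to TMM library sizes. The deposited values behave as if already divided by transcript length, so CPM are compared between genes as levels per length. The deposited values summed to between 13328623 and 18740591 per library, with between 20234 and 21235 genes above 0. Short non-coding RNA genes took 21.9 to 53.5% of these sums. A pair of libraries stood apart. In E17.5 replicate 1 the 12 alveolar fibroblast markers summed to 2835 CPM, against 280 to 962 CPM in the other 11 libraries, and all 12 were at their highest there. In P10 replicate 1 the 12 endothelial markers summed to 64.2 CPM, against 152 and 142 CPM in the other P10 libraries. There 6 of the 8 pericyte markers were at their lowest of that stage. That count was also 6 in P3 replicate 1 and was 5 in E17.5 replicate 3, so it does not set P10 replicate 1 apart. Where leaving out E17.5 replicate 1 or P10 replicate 1 changed a call of a marker, both values are given.

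The markers spanned a wide range of levels in the double-positive cells. By mean level over the 12 libraries, Mcam lay above 89.6% and Rgs5 above 87.4% of the 16827 tested genes. Kcnj8 lay above 71.0%, Cspg4 above 60.9%, Trpc6 above 58.4% and Abcc9 above 51.6% of tested genes. Higd1b, above 30.0%, and Ebf1, above 5.56%, were low, so the set was unevenly expressed in these cells. Across the 4 stages, 5 of the 8 markers differed (edgeR quasi-likelihood test with Benjamini-Hochberg adjustment over all tested genes), where 32.1% of all tested genes did. These were Cspg4 (adjusted p = 2.95e-06), Rgs5 (0.000196), Higd1b (0.00569), Mcam (0.0167) and Abcc9 (0.0464). Kcnj8 (adjusted p = 0.723), Trpc6 (0.324) and Ebf1 (0.174) did not pass. Some of these outcomes rest on 1 library: Mcam did not pass without P10 replicate 2 (0.0549) or replicate 3 (0.0645). Kcnj8 passed without E17.5 replicate 2 (0.0371), Trpc6 passed without P10 replicate 1 (0.0271), and Abcc9 was lost without any 1 of several libraries, as given with its values. In bulk samples, fewer cells that express a gene and less RNA of it per cell cannot be told apart.

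**Figure D1:**
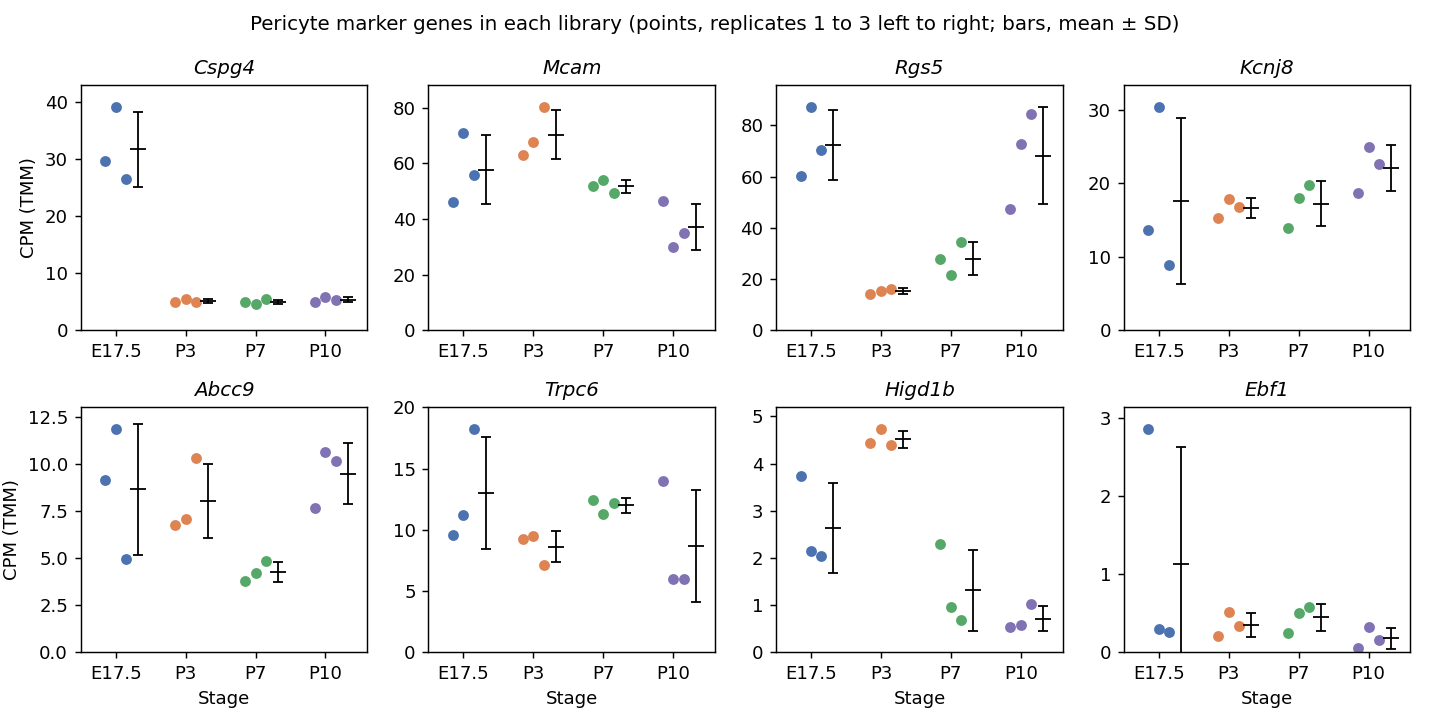
Level of each of the 8 pericyte markers in CPM (vertical axes, each from 0) at the 4 stages (horizontal axes), with 1 point per library and the mean ± SD of 3 libraries as bars. Cspg4 sat at 26.4 to 39.1 CPM at E17.5 and at 4.56 to 5.76 CPM in every later library, while Rgs5 fell from E17.5 to P3 and was high again at P10. The lower SD bar of Ebf1 at E17.5 is clipped at 0.

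Cspg4 and Rgs5 fell across birth, and Rgs5 rose again by P10. From E17.5 to P3 these 2 of the 8 markers fell and 0 rose, where 12% of tested genes fell and 13.1% rose (25.1% in either direction). The median log2 fold change of the 8 markers was -0.34, beside -0.05 over all tested genes. From P3 to P7 no marker passed in edgeR, where 0.00594% of tested genes did. At an unadjusted p under 0.05 there were 4 markers and 2399 of the 16827 genes in that interval. Both limma fits called 0 markers there. From P7 to P10 1 marker, Rgs5, rose and 0 fell, where 1.4% of genes rose and 2.25% fell (3.64% in all). From P3 to P10 1 marker rose and 2 fell, where 7.9% of tested genes rose and 9.4% fell (17.3% in all). Between E17.5 and P10 3 markers fell and 0 rose, where 9.5% of genes fell and 8.79% rose (18.3% in all). DESeq2 called 2 of the 8 markers for P3 vs E17.5 (30.5% of its tested genes), 2 for P7 vs P3 (4.64%) and 2 for P10 vs P7 (11.5%). It called 4 for P10 vs E17.5 (24.7%) and 3 for P10 vs P3 (24.8%). The comparisons share libraries, so each is given with its own values.

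**Figure D2:**
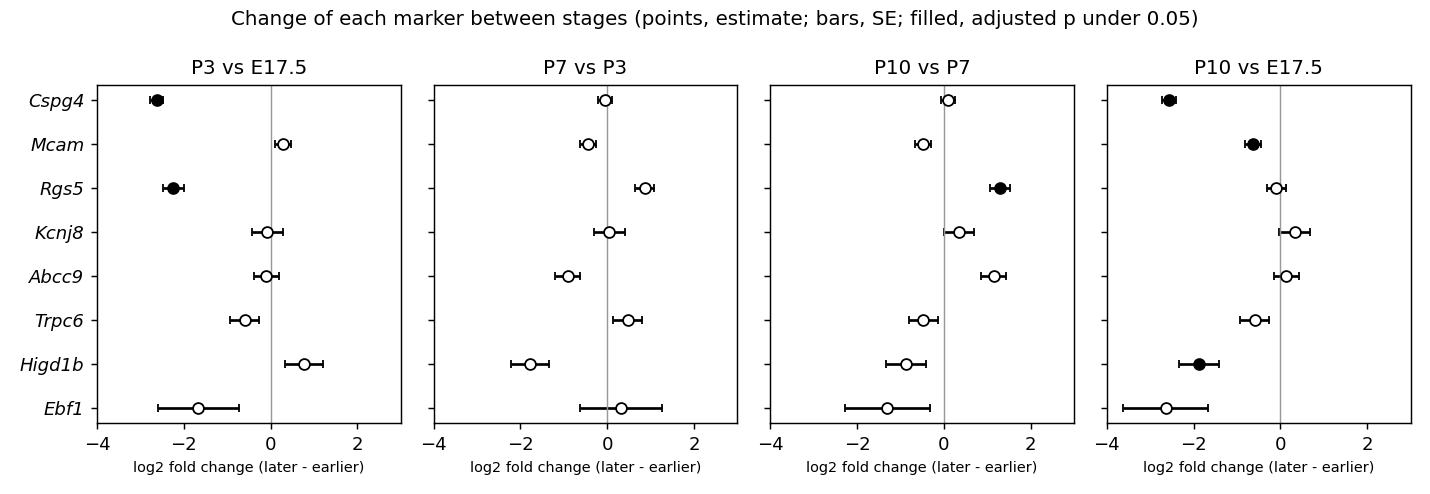
Log2 fold change of each pericyte marker (points, with SE as bars) in 4 comparisons of stages, later minus earlier on the horizontal axis. Filled points had an adjusted p under 0.05 in edgeR's quasi-likelihood test. Cspg4 (-2.63) and Rgs5 (-2.24) are filled for P3 vs E17.5, no point is filled for P7 vs P3, and Rgs5 (1.29) is filled for P10 vs P7.

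Cspg4 encodes the NG2 proteoglycan, a large surface protein that binds matrix collagens and growth factors (GRCm38 chromosome 9, 56865033 to 56899870, plus strand). It stood at 29.6, 39.1 and 26.4 CPM in the E17.5 libraries, replicates 1 to 3. It stood at 4.91, 5.53 and 4.93 CPM at P3, at 4.88, 4.56 and 5.42 CPM at P7 and at 4.93, 5.76 and 5.29 CPM at P10. All 3 embryonic libraries lay above all 9 postnatal libraries, and the postnatal stages overlapped one another. The fall from E17.5 to P3 was 6.18-fold (log2 fold change -2.63, SE 0.16, adjusted p = 8.11e-06, edgeR). After P3 no comparison of Cspg4 passed, with log2 fold changes of -0.05 (SE 0.16) to P7 and 0.10 (SE 0.15) from P7 to P10. At P10 Cspg4 was still 5.95-fold below E17.5 (log2 fold change -2.57, SE 0.16, adjusted p = 4.27e-06, edgeR). Over 22 alternative analyses the P3 vs E17.5 estimate for Cspg4 ranged from -2.72 to -2.43 and every one passed. Without E17.5 replicate 1 it was -2.67. Of the markers of glia, whose progenitors also carry NG2, Sox10 was at most 0.158 CPM in any library, and 9 together summed to 6.21 to 6.93 CPM at E17.5 and 14.8 to 22.1 CPM at P10. S100b alone made up most of the P10 sum, at 14.2 to 20.7 CPM, and the other 8 were under 1 CPM in all P10 libraries. The part of glial cells in Cspg4 was not tested.

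Rgs5 encodes a GTPase-activating protein that ends signals from G protein-coupled receptors and is among the strongest pericyte transcripts in many organs (chromosome 1, 169655501 to 169695813, plus strand). It stood at 60.1, 87.1 and 70.3 CPM at E17.5, replicates 1 to 3, and at 14.3, 15.5 and 16.2 CPM at P3. It then stood at 27.8, 21.4 and 34.3 CPM at P7 and at 47.4, 72.6 and 84.4 CPM at P10. All P3 libraries lay below all P7 libraries, all P7 below all P10, and P10 overlapped E17.5. The fall from E17.5 to P3 was 4.73-fold (log2 fold change -2.24, SE 0.24, adjusted p = 0.000148, edgeR). The value for P7 vs P3 was 0.86 (SE 0.23, adjusted p = 0.168), which did not pass in edgeR and did in DESeq2 (0.85, adjusted p = 0.0109). From P7 to P10 Rgs5 rose 2.45-fold (1.29, SE 0.23, adjusted p = 0.0198), and from P3 to P10 it rose 4.45-fold (2.15, SE 0.24, adjusted p = 0.000900). The P10 and E17.5 levels were close (log2 ratio -0.09, SE 0.22, adjusted p = 0.831).

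The P10 vs P3 call of Rgs5 held in all 22 alternatives, with estimates from 1.97 to 2.33. The smaller step from P7 to P10 was less secure. It lost its call without P7 replicate 1 (adjusted p = 0.0744), replicate 2 (0.0698) or replicate 3 (0.0614), and without P10 replicate 2 (0.0802) or replicate 3 (0.0828), with estimates from 1.12 to 1.47. Without P10 replicate 1, the P10 library with the least Rgs5, the step was 1.47 (adjusted p = 0.00732). Endothelial markers were read beside Rgs5 at these stages. At P10 their sum was 64.2, 152 and 142 CPM, replicates 1 to 3, beside Rgs5 at 47.4, 72.6 and 84.4 CPM. P10 replicate 1 was thus lowest in both, while the other P10 libraries had opposite orders. At P7 the sum was 71.5, 104 and 87.3 CPM beside Rgs5 at 27.8, 21.4 and 34.3 CPM. There the library with the highest sum had the lowest Rgs5. All 12 endothelial markers had a positive estimate for P10 vs P7, and 0 of 12 passed. The part of other cells in the rise of Rgs5 was not tested.

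Mcam encodes CD146, an adhesion molecule of the immunoglobulin family that pericytes share with endothelium and smooth muscle (chromosome 9, 44134469 to 44142727, plus strand). It was the highest of the 8 markers at P3 and P7. It stood at 46.3, 70.9 and 55.8 CPM at E17.5, replicates 1 to 3, and at 63.1, 67.7 and 80.2 CPM at P3. It stood at 51.9, 54.0 and 49.3 CPM at P7 and at 46.3, 30.0 and 34.8 CPM at P10. P3 and E17.5 overlapped, whereas all P10 libraries lay below all P7 libraries and all P7 below all P3. Mcam fell 1.90-fold from P3 to P10 (log2 fold change -0.92, SE 0.18, adjusted p = 0.00866, edgeR). That fall passed in all 22 alternatives, with estimates from -1.15 to -0.79. Neither step within it passed, with -0.44 (SE 0.18, adjusted p = 0.311) for P7 vs P3 and -0.48 (SE 0.18, adjusted p = 0.171) for P10 vs P7. The lower level at P10 than at E17.5 was a borderline call (-0.64, SE 0.18, adjusted p = 0.0349), and the ranges of the stages overlapped at 46.3 CPM. That call was lost without E17.5 replicate 2 (-0.46, adjusted p = 0.149) or replicate 3 (-0.66, 0.0624). It was also lost without P10 replicate 2 (-0.51, 0.126) or replicate 3 (-0.59, 0.122), without P3 replicate 2 (-0.64, 0.0544), without any 1 of the P7 libraries (-0.64, 0.0564 to 0.0566) and when only the 6 libraries compared were fitted (-0.63, 0.121). With all libraries it was lost with no filter on low values (-0.63, 0.0542) and with the replicate number as a block (-0.63, 0.0731).

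The endothelial and smooth muscle markers that share Mcam were read beside it. From P3 to P10 all 12 endothelial markers had positive estimates and 1 passed, while Mcam fell. Of 15 tested vascular smooth muscle markers, 5 fell and 2 rose between the same stages, where 9.4% of all tested genes fell and 7.9% rose. Their median log2 fold change was -0.67, beside 0.03 over all tested genes. The smooth muscle sum was 3109 to 3265 CPM at P3 and 1573 to 2622 CPM at P10. P10 replicate 1 had both the highest smooth muscle sum, 2622 CPM, and the highest Mcam, 46.3 CPM, of its stage. Most of that sum was the gate gene Acta2 (676 CPM), Tagln (558), Myh11 (468) and Actg2 (330). Of the 17 markers in the sum, 9 were at their highest of the stage in that library and 6 at their lowest. Other stages differed. At P7 the orders were opposite, with sums of 2896, 2283 and 3073 CPM beside Mcam at 51.9, 54.0 and 49.3 CPM, replicates 1 to 3. P3 replicate 1 had the highest sum, 3265 CPM, and the lowest Mcam, 63.1 CPM, of its stage. At E17.5 the sums were 1254, 1661 and 2282 CPM beside Mcam at 46.3, 70.9 and 55.8 CPM. Whether smooth muscle transcripts account for Mcam was not tested.

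Kcnj8 and Abcc9 encode the pore, Kir6.1, and the regulatory subunit, SUR2, of the ATP-sensitive potassium channel that hyperpolarises vascular mural cells. The genes are neighbours on chromosome 6, both on the minus strand, with 16247 bases between them (Kcnj8 142564837 to 142571614, Abcc9 142587862 to 142702315). Kcnj8 stood at 13.6, 30.4 and 8.92 CPM at E17.5, replicates 1 to 3, and at 15.3, 17.9 and 16.8 CPM at P3. It stood at 13.95, 18.0 and 19.8 CPM at P7 and at 18.7, 24.9 and 22.6 CPM at P10. The embryonic libraries spanned more than all postnatal ones together, with the highest and the lowest Kcnj8 value of all 12. No comparison of Kcnj8 passed: its log2 fold changes were -0.07 (SE 0.36) for P3 vs E17.5, 0.05 (SE 0.35) for P7 vs P3 and 0.35 (SE 0.35) for P10 vs P7. Without E17.5 replicate 2, its highest library, Kcnj8 was higher at P10 than at E17.5 (0.97, adjusted p = 0.0137, edgeR), against 0.34 (adjusted p = 0.569) with all libraries.

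Abcc9 was measured at 9.17, 11.9 and 4.95 CPM at E17.5, and at 6.75, 7.12 and 10.3 CPM at P3, replicates 1 to 3. It stood at 3.79, 4.23 and 4.84 CPM at P7 and at 7.66, 10.7 and 10.2 CPM at P10. Every P7 library lay below every library of the other stages, and those stages overlapped. The values were -0.91 (SE 0.30, adjusted p = 0.227) for P7 vs P3 and 1.15 (SE 0.30, adjusted p = 0.0604) for P10 vs P7, so neither step passed. The second passed in DESeq2 (1.15, adjusted p = 0.00323) and when only the P7 and P10 libraries were fitted (1.14, adjusted p = 0.0317). It also passed without E17.5 replicate 2 (1.13, adjusted p = 0.0448) or replicate 3 (1.12, adjusted p = 0.0232). The call over all stages was as fragile, since leaving out any P7 library moved its adjusted p from 0.0464 to between 0.0960 and 0.148. It was lost as well without E17.5 replicate 1 (0.0735), P3 replicate 1 (0.0625) or replicate 2 (0.0735), and without P10 replicate 1 (0.0509), replicate 2 (0.0918) or replicate 3 (0.0858). With all libraries it was lost with no filter on low values (0.0624), with limma-voom (0.0626) and with the replicate number as a block (0.0795).

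The ratio of Kcnj8 to Abcc9 was examined after the values were seen, and it is given without a test. It was 3.68, 4.25 and 4.10 at P7, a mean of 4.01 ± 0.29 (SD, n = 3). In the other libraries it was 1.48, 2.56 and 1.80 at E17.5, 2.26, 2.51 and 1.62 at P3, and 2.44, 2.33 and 2.22 at P10. All 3 P7 ratios lay above all 9 others, with Abcc9 low and Kcnj8 within the range of the other stages. At E17.5 the levels of the subunits varied together, with both highest in replicate 2 and both lowest in replicate 3. The paralogues Kcnj2, Kcnj12 and Kcnj15 were each under 1 CPM at every stage. The listed paralogues Kcnj11 and Abcc8 were absent from the deposited values, so their levels are not known.

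**Figure D3:**
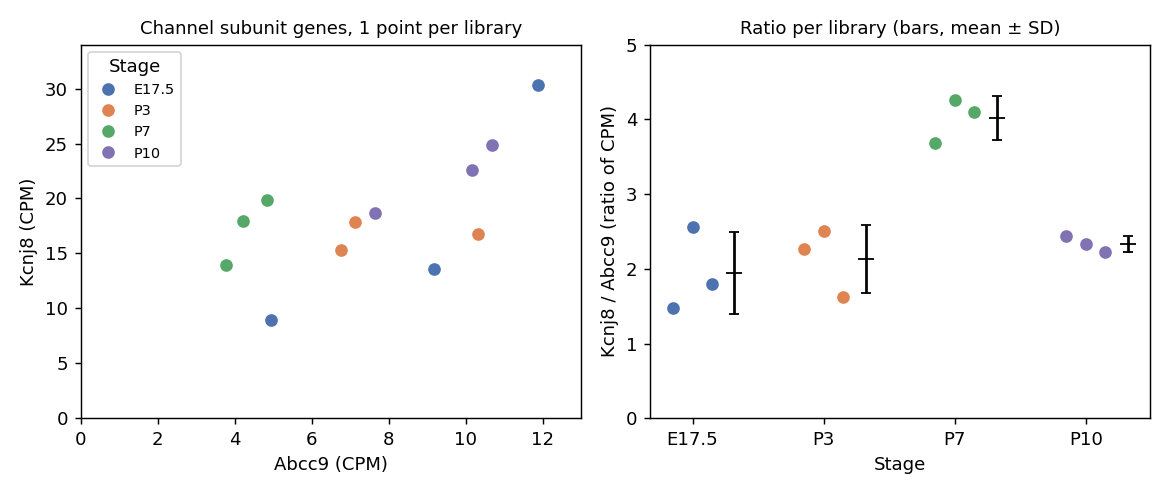
Kcnj8 against Abcc9 in CPM with 1 point per library, coloured by stage (left), and the ratio of Kcnj8 to Abcc9 in each library with mean ± SD of 3 libraries per stage (right). The 3 P7 ratios, 3.68 to 4.25, lie above the 9 others, 1.48 to 2.56.

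Trpc6 encodes a calcium-permeable cation channel opened by diacylglycerol after receptor activation, and it is also used by smooth muscle (chromosome 9, 8544142 to 8680741, plus strand). It stood at 9.58, 11.2 and 18.2 CPM at E17.5, replicates 1 to 3, and at 9.21, 9.51 and 7.16 CPM at P3. It stood at 12.5, 11.3 and 12.2 CPM at P7 and at 13.95, 6.02 and 5.999 CPM at P10. The P7 libraries were close to one another, while at P10 replicate 1 lay far above the other 2 libraries. No comparison of Trpc6 passed, with log2 fold changes of -0.59 (SE 0.33, adjusted p = 0.227) for P3 vs E17.5, 0.47 (SE 0.33, 0.542) for P7 vs P3 and -0.47 (SE 0.33, 0.462) for P10 vs P7. Without P10 replicate 1, Trpc6 was lower at P10 than at E17.5 (-1.12, adjusted p = 0.0178, edgeR), against -0.59 (adjusted p = 0.257) with it. That library had the lowest endothelial sum of its stage, with 11 of 12 markers at their lowest of the stage. It also had the highest smooth muscle sum, which includes the gate gene Acta2. Of the 17 smooth muscle markers in that sum, 9 were at their highest of the stage there and 6 at their lowest. The part of either cell type in Trpc6 was not tested. Among the paralogues, Trpc1 stood at a mean of 11.02, 7.34, 8.40 and 11.4 CPM in stage order, and Trpc4, Trpc5 and Trpc7 were each under 1 CPM at every stage.

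Higd1b belongs to the family of hypoxia-inducible domain proteins of the mitochondrial inner membrane, and it separates pericytes from smooth muscle in many single-cell atlases (chromosome 11, 102835849 to 102838040, plus strand). It stood at 3.74, 2.14 and 2.03 CPM at E17.5, replicates 1 to 3, and at 4.43, 4.73 and 4.39 CPM at P3. It stood at 2.29, 0.958 and 0.684 CPM at P7 and at 0.534, 0.582 and 1.02 CPM at P10. Every P3 library lay above every library of any other stage, and P10 overlapped P7. The fall from P3 to P10 was 6.26-fold (log2 fold change -2.65, SE 0.46, adjusted p = 0.00526, edgeR) and passed in all 22 alternatives, with estimates from -3.00 to -2.51. The step from P3 to P7 had -1.78 (SE 0.44, adjusted p = 0.155), and DESeq2 called it (-1.79, adjusted p = 0.00507). The value for P3 vs E17.5 was 0.77 (SE 0.43, adjusted p = 0.222).

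Higd1b also fell from E17.5 to P10 (-1.87, SE 0.46, adjusted p = 0.0174, edgeR). That call was lost without E17.5 replicate 1 (-1.54, adjusted p = 0.0603), P10 replicate 1 (-1.71, 0.0592) or P10 replicate 2 (-1.75, 0.0679). The deposited values behind the P10 levels were 9, 9 and 20, and the median Higd1b transcript is 530 nt, so these stand for few reads. Its paralogue Higd1a, a widely expressed member of the family, fell from a mean of 27.1 ± 2.03 CPM at E17.5 to 17.2 ± 0.879 at P3 (SD, n = 3 each; log2 fold change -0.65, SE 0.10, adjusted p = 0.00122). It was 12.9 CPM at P7 and 13.1 CPM at P10. Higd1b was at its highest at P3, where Higd1a was already lower than at E17.5.

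Ebf1 encodes a transcription factor of the early B cell factor family that takes part in the commitment of both B lymphocytes and pericytes (chromosome 11, 44617317 to 45008091, plus strand). It stood at 2.85, 0.292 and 0.261 CPM at E17.5, replicates 1 to 3, and at 0.205, 0.513 and 0.338 CPM at P3. It stood at 0.249, 0.507 and 0.579 CPM at P7 and at 0.0594, 0.324 and 0.153 CPM at P10. A single library, E17.5 replicate 1, stood apart from the other 11, all of which were under 1 CPM. The value for P3 vs E17.5 was -1.67 (SE 0.93, adjusted p = 0.225), and without that library it was 0.36 (adjusted p = 0.815). The value for P10 vs E17.5 was -2.64 (SE 0.99, adjusted p = 0.0907), and it was -0.62 (adjusted p = 0.690) without it. DESeq2 called the latter with all libraries (-2.69, adjusted p = 0.0406). The deposited values of Ebf1 were 42, 3 and 5 at E17.5 and 1 to 11 in the postnatal libraries. Values this low leave differences among the other libraries unresolved. Read as scaled by length, they do not give numbers of reads.

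E17.5 replicate 1 was also the library in which alveolar fibroblast markers summed to 2835 CPM, against 696 and 605 CPM in the other E17.5 libraries, and the part of those cells in its Ebf1 was not tested. The B cell gene Cd79a stood at means of 0.543, 1.65, 1.53 and 2.01 CPM in stage order, and the part of B cells in Ebf1 was not tested. The paralogue Ebf4 was the most abundant Ebf gene at every stage and fell from 16.6 ± 2.84 CPM at E17.5 to 4.95 ± 0.0781 at P3 (SD, n = 3 each; log2 fold change -1.74, SE 0.14, adjusted p = 4.03e-05, edgeR). Ebf4 was 4.16 CPM at P7 and 5.43 CPM at P10. Ebf2 was 0.754 CPM on average at E17.5 and at most 0.0905 CPM later, and the mean of Ebf3 was at most 0.156 CPM at any stage.

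**Figure D4:**
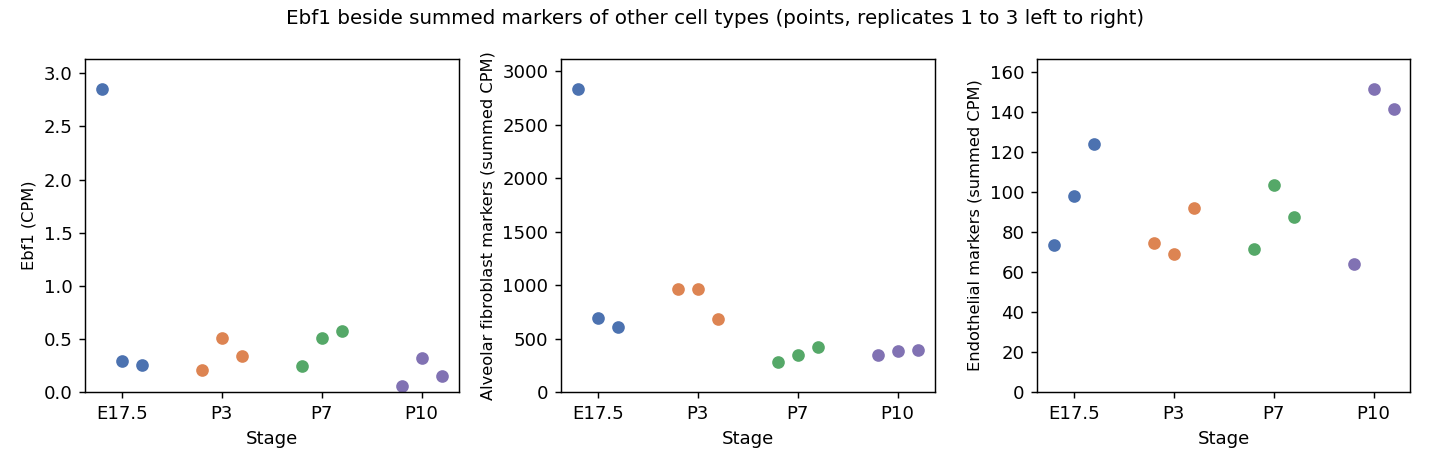
Ebf1 in CPM (left), the summed CPM of 12 alveolar fibroblast markers (middle) and the summed CPM of 12 endothelial markers (right) in each library by stage, with replicates 1 to 3 from left to right. E17.5 replicate 1 is highest for Ebf1 (2.85) and for alveolar fibroblast markers (2835), and P10 replicate 1 is lowest of all libraries for endothelial markers (64.2).

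The order of the markers by level changed with stage. At E17.5 Rgs5 (72.5 ± 13.6 CPM) and Mcam (57.7 ± 12.4) led, with overlapping libraries, followed by Cspg4 (31.7 ± 6.60), Kcnj8, Trpc6, Abcc9, Higd1b and Ebf1 (SD, n = 3). At P3 Mcam (70.3 ± 8.85) lay far above Kcnj8 (16.6 ± 1.31) and Rgs5 (15.3 ± 0.991), whose libraries overlapped, and Cspg4 (5.12 ± 0.349) had dropped to the sixth place. At P7 Rgs5 (27.8 ± 6.44) was again second to Mcam (51.7 ± 2.35), and at P10 Rgs5 (68.2 ± 18.9) was first with all its libraries above those of Mcam (37.1 ± 8.37). The summed level of the 8 markers was 174.9 to 253 CPM at E17.5, 118 to 140 CPM at P3, 115 to 127 CPM at P7 and 140 to 164 CPM at P10. The markers thus did not move as one block: Cspg4 stepped down once, Rgs5 fell and rose, and Mcam and Higd1b were highest on average at P3 and fell later.

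Likeness of pattern was measured as the root mean square difference of log2 CPM over the 12 libraries, with each gene centred on its own mean, and smaller values mean more alike. A gene that varies little is near many others, so the distances are read beside each marker's own root mean square around its mean: 0.392 for Mcam, 0.437 for Kcnj8, 0.460 for Trpc6, 0.543 for Abcc9, 0.959 for Rgs5, 1.12 for Higd1b, 1.14 for Cspg4 and 1.15 for Ebf1. Among pairs of markers the nearest were Kcnj8 and Abcc9 (0.468), then Mcam and Trpc6 (0.496), and Cspg4 and Rgs5 differed by 0.959. Each of these distances was at least as large as the own variation of one gene of its pair. Of 8808 other genes, the nearest to Cspg4 were Bnip3 (0.138), a mitochondrial protein of the hypoxia response, and Hhip (0.175), a hedgehog-binding protein of myofibroblasts. Hhip stood at means of 609, 102, 103 and 113 CPM in stage order. The nearest to Rgs5 were F3 (0.368), the coagulation tissue factor, and Jam2 (0.391), a junctional adhesion molecule. The nearest to Mcam were Gapdh (0.137) and Srsf9 (0.152), to Kcnj8 Fam98c (0.192) and Sema6a (0.195), and to Abcc9 Nr4a3 (0.279) and Nr4a2 (0.306). The nearest to Trpc6 were Hpse2 (0.233) and Zfp536 (0.239). The nearest to Higd1b were Fmod (0.634) and Fhl2 (0.639), and to Ebf1 Tchh (0.727) and Gng11 (0.731).

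Other genes of pericytes and mural cells moved in both directions beside the 8 markers. Of 22 listed, 19 were tested. From E17.5 to P3 5 of the 19 fell and 1 rose, where 12% of all tested genes fell and 13.1% rose, and their median log2 fold change was -0.51, beside -0.05 over all tested genes. From P3 to P10 4 rose and 0 fell, where 7.9% rose and 9.4% fell, with a median of 0.22 beside 0.03. Between E17.5 and P10 5 fell and 2 rose, where 9.5% fell and 8.79% rose. Over any stage 9 of the 19 differed, beside 32.1% of all tested genes. Lamc3, a laminin chain, stood at 25.2, 72.4 and 38.6 CPM at E17.5, replicates 1 to 3, and at 3.68, 2.28 and 3.11 CPM at P3 (-3.91, SE 0.45, adjusted p = 0.000258, edgeR). Ndufa4l2, a mitochondrial protein of the hypoxia response, was at 32.5, 17.7 and 7.93 CPM at E17.5 and at 1.43, 1.03 and 1.76 CPM at P3 (-3.78, SE 0.54, adjusted p = 0.000771). Neither came back by P10, when Lamc3 was 2.65 to 5.58 CPM and Ndufa4l2 0.653 to 1.04 CPM. Like Cspg4 they were lower in every postnatal than in every embryonic library.

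Pdgfrb, the receptor through which pericytes are recruited, took another course. It was at 31.0, 41.3 and 22.9 CPM at E17.5 and at 36.1, 31.4 and 28.1 CPM at P3, replicates 1 to 3. It stood at 49.9, 65.5 and 49.6 CPM at P7 and at 85.0, 83.1 and 85.1 CPM at P10. E17.5 and P3 overlapped, and each later stage lay above the one before, with a rise from P3 to P10 of 1.40 on the log2 scale (SE 0.20, adjusted p = 0.00197, edgeR). Pdgfrb and Rgs5 thus both rose from P3 to P10, but Pdgfrb did not pass before it (0.01, SE 0.19, for P3 vs E17.5). P2ry14, a receptor for UDP-glucose, went from 59.0 ± 28.4 CPM at E17.5 to 181 ± 46.8 at P3 and 367 ± 19.5 at P10 (SD, n = 3 each), a rise at P3 vs E17.5 of 1.61 (SE 0.30, adjusted p = 0.00348). Notch3, a receptor of mural cell maturation, fell across birth (10.9 to 4.82 CPM, -1.18, SE 0.25, adjusted p = 0.00707). Gucy1b3, a subunit of soluble guanylate cyclase, did too (86.4 to 27.0 CPM, -1.68, SE 0.21, adjusted p = 0.000374). The Notch target Heyl rose from P3 to P10 (1.959 to 6.09 CPM, 1.63, SE 0.41, adjusted p = 0.0213). Vtn, Tbx18 and Itga7 were too low to test, with means under 1 CPM at every stage.

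**Figure D5:**
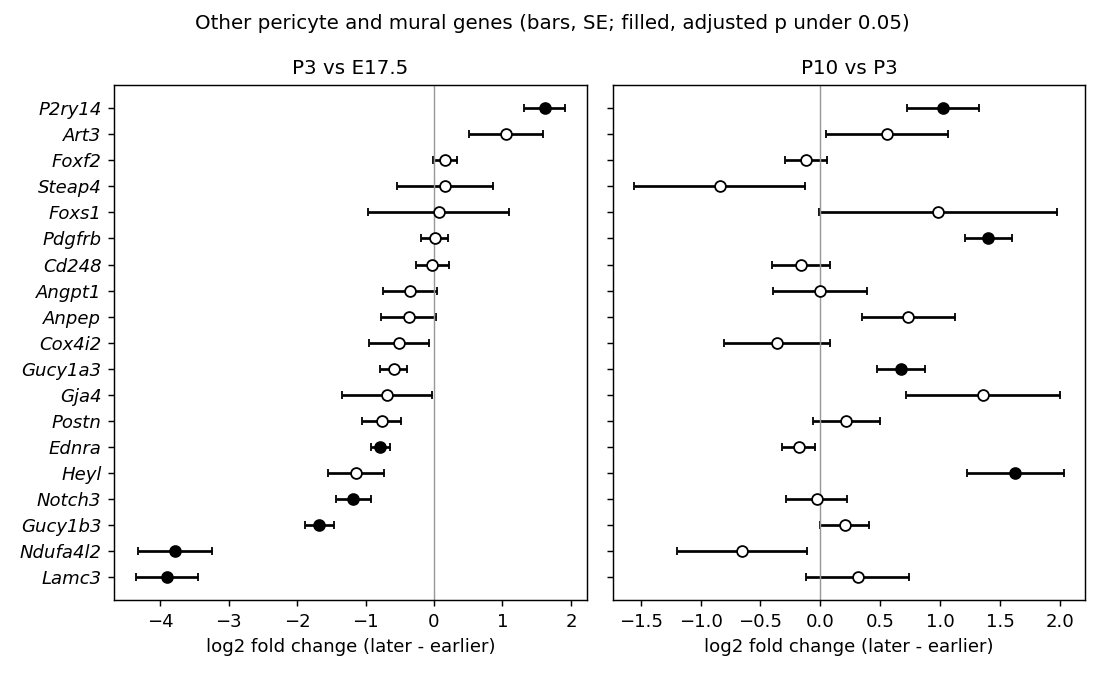
Log2 fold change (horizontal axis, later minus earlier, with SE as bars) of the 19 tested other pericyte and mural genes from E17.5 to P3 (left) and from P3 to P10 (right), each panel with its own axis range. Filled points had an adjusted p under 0.05: Lamc3 (-3.91), Ndufa4l2 (-3.78), Gucy1b3, Notch3 and Ednra were lower and P2ry14 (1.61) higher at P3 than at E17.5, and Heyl (1.63), Pdgfrb (1.40), P2ry14 and Gucy1a3 were higher at P10 than at P3.

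Paralogues show which relatives of the markers the cells also carried. Of 24 listed, 22 were in the table and 11 were tested. From E17.5 to P3 4 of the 11 fell and 1 rose, where 12% of all tested genes fell and 13.1% rose. From P3 to P10 2 rose and 2 fell, where 7.9% of all tested genes rose and 9.4% fell. Rgs2, which acts on the same receptor signals as Rgs5, stood at 266, 138 and 198 CPM at E17.5, at 83.9, 85.3 and 45.4 CPM at P3, at 158, 93.8 and 95.9 CPM at P7 and at 86.1, 220 and 283 CPM at P10. It fell from E17.5 to P3 (-1.49, SE 0.44, adjusted p = 0.0340, edgeR) and rose from P3 to P10 (1.46, SE 0.44, adjusted p = 0.0482), the directions Rgs5 took. Rgs16 rose instead, from 11.9 to 49.0 CPM across birth (2.04, SE 0.57, adjusted p = 0.0269), and stood at 88.9 CPM at P10. Rgs3, Rgs4 and Rgs8 passed in none of the 5 comparisons. Alcam, an adhesion molecule related to Mcam, fell from 9.21 CPM at P3 to 1.64 CPM at P10 (-2.49, SE 0.55, adjusted p = 0.0134). The Cspg4 relative Cspg5 stayed at means of 1.65 to 2.70 CPM and passed in none of the 5.

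Of 22 genes for the ligands and receptors of pericyte recruitment, all were tested. From E17.5 to P3 7 fell and 2 rose, where 25.1% of all tested genes changed in either direction. From P3 to P10 2 fell and 2 rose, where 17.3% of all tested genes changed, a share near that of the list. The ligand Pdgfb, made by endothelium, was under 1 CPM on average at every stage, while its receptor Pdgfrb rose as given above. Ednrb, an endothelin receptor, fell from 368 ± 111 CPM at E17.5 to 66.8 ± 19.1 at P3 and 8.15 ± 2.81 at P10 (SD, n = 3 each). Its log2 fold change for P10 vs E17.5 was -5.49 (SE 0.39, adjusted p = 1.06e-05, edgeR). S1pr3, a sphingosine-1-phosphate receptor, fell from 93.8 to 4.24 CPM over the same interval (-4.47, SE 0.25, adjusted p = 2.31e-06). The transforming growth factor co-receptor Eng rose from 61.7 to 190 CPM (1.63, SE 0.20, adjusted p = 0.000275).

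Markers of the cells that the gate selects and of others that it could hold were far apart in level. Secondary crest myofibroblast markers summed to 2714 to 4574 CPM over the 12 libraries and vascular smooth muscle markers to 1254 to 3265 CPM, against 115 to 253 CPM for the 8 pericyte markers. Both of those lists hold the gate gene Acta2 and Mustn1, and the first also holds the gate gene Pdgfra, so neither sum is independent of the sort or of the other. Endothelial markers summed to 64.2 to 152 CPM, epithelial to 59.5 to 282, immune to 10.4 to 26.3, erythroid to 12.5 to 180 and mesothelial to 0.594 to 12.8 CPM. Erythroid markers were the highest at E17.5, at 117 to 180 CPM, where Cspg4 was also highest, and were at 12.5 to 53.9 CPM afterwards. At P10 they summed to 27.0 to 53.9 CPM, while Rgs5 overlapped its E17.5 range. The part of erythroid cells in either gene was not tested. Lists differ in length and in the genes they hold, so these sums are levels of the lists and not shares of cells.

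For 4 of the 8 markers, GENCODE has a gene on the opposite strand that overlaps them (Mcam, Abcc9, Trpc6 and Ebf1). The kit keeps strand, and whether the counting used it is not given in the sources used here, so reads of these pairs might not be separated.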

How the data were processed

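The data were 12 libraries, 3 per stage, made with a low-input stranded total RNA kit, per the labels' protocols (the molecule label names polyadenylated RNA). The values deposited by the authors are estimated counts, scaled and rounded to whole numbers. The genome build was GRCm38, per the submitters' processing notes, and the quantifier is not given in the sources used here. Low values show a length effect. As transcripts lengthen the smallest values shrink. The 5th percentile of values above 0 was 33 at 100 to 150 nt, 8 at 300 to 330 nt and 1 at 900 to 1100 nt. They were therefore read as scaled by length, and zeros were given no upper limit. The tests and the filter on low values took them as counts, so the precision given to short and to long transcripts may be wrong.

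Stages came from the labels. edgeR 4.0.16 (limma 3.58.1, R 4.3.3) was run on all 12 libraries in 1 model: TMM, the filter on low counts by stage, robust quasi-likelihood tests and Benjamini-Hochberg adjustment at 0.05 over 16827 genes. Every adjusted p is from it unless another tool is named. Coordinates are from GENCODE mouse release 21, which matched 92.3% of symbols. Named genes were all 8 members, up to 4 of each other list with the largest passing change, tested paralogues, and the 2 genes nearest in pattern to each member. Notch3, Heyl, Ednra, Gucy1a3, Pdgfb, Sox10 and untested genes were named after their values were seen. The members and lists were chosen with earlier results of these data known. The code was also run on simulated counts with the same dispersion for every gene, a setting unlike these data, so that run does not vouch for the results here. Alternatives were other normalizations, filters, DESeq2 1.42.0, limma-voom, a replicate block, fits of 2 stages, each library left out, and limma on log2 CPM, chosen after seeing the data.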

Additional observations from a re-analysis of the deposited data

How the results depend on the processing

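Of the calls named for single markers, 6 passed in all 22 alternatives: Cspg4 and Rgs5 for P3 vs E17.5, Rgs5, Mcam and Higd1b for P10 vs P3, and Cspg4 for P10 vs E17.5. The number of genes called moved more than that of the markers. For P7 vs P3 the 1 gene called became 4 with upper-quartile normalization, 2 without short non-coding RNA genes, 3 with no filter and 3 with a filter of 1 CPM. It became 730 with DESeq2, 18 with limma-voom, 17 with limma on log2 CPM and 9 with only those stages fitted, and DESeq2 called 2 markers there instead of 0. For P10 vs P7 613 genes became 307 with no filter and 1845 with DESeq2, and 1 marker became 2 with DESeq2 and 2 with only those stages fitted. With only the stages compared, 4225 genes became 2767 for P3 vs E17.5 and 3077 became 1687 for P10 vs E17.5. With the replicate number as a block, 0 genes were called for P7 vs P3 and 310 for P10 vs P7. The labels do not say whether the numbers pair the samples. Deviations of same-numbered libraries correlated at -0.167 to 0.12, and those of other pairs at -0.176 to 0.186. With 3 libraries per stage such values cannot exclude a shared litter or batch. The numbers are those of the sample titles, and the library names number some samples otherwise. The block also ended the calls of Mcam for P10 vs E17.5 (adjusted p = 0.0731) and of Abcc9 over all stages (0.0795).

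With 1 library left out at a time, genes called ranged from 2968 to 4305 for P3 vs E17.5, 0 to 73 for P7 vs P3, 22 to 790 for P10 vs P7, 2016 to 3113 for P10 vs E17.5, 1307 to 3053 for P10 vs P3 and 4096 to 5413 over all stages. Markers called ranged from 2 to 2, 0 to 0, 0 to 2, 1 to 3, 3 to 3 and 3 to 6 in the same order. Estimates that changed sign were uncalled on both sides. For P3 vs E17.5 Kcnj8 was 0.22 with limma-voom, 0.10 with limma on log2 CPM, 0.018 with the replicate block and -0.37 to 0.58 with a library left out. Abcc9 was 0.049 with limma-voom and -0.36 to 0.21 with a library left out, and Ebf1 was -2.12 to 0.36. For P7 vs P3 the left-out range was -0.13 to 0.0092 for Cspg4 and -0.071 to 0.16 for Kcnj8. For P10 vs E17.5 it was -0.27 to 0.11 for Rgs5 and -0.15 to 0.43 for Abcc9. For P10 vs P3 it was -0.0057 to 0.087 for Cspg4 and -0.55 to 0.22 for Trpc6, and Trpc6 was -0.00026 with no filter, -0.010 with the filter of 1 CPM, -0.12 with limma-voom, -0.10 with limma on log2 CPM and -0.044 with the replicate block. The cause of these changes was not tested. Ebf1 had the lowest mean level of the 8 markers at every stage, with deposited values of 1 to 11 in all but 1 library.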
